A study of Homo sapiens with 17 samples.

Results

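FOXA2 at full length and FOXA2 with its CTD deleted were compared as bound genomic regions in U2OS cells, a human osteosarcoma line. The members are the peaks on chromosomes 1 to 22 and X in the combined peak list of each group: 44637 for full-length FOXA2 and 52866 for CTD-deleted FOXA2, or 97503 of the 206881 peaks that the 8 combined lists of the series hold there. The 2 groups carry the genotypes Tet-on FOXA2 and Tet-on FOXA2dCTD, in stable lines grown in DMEM with 10% serum and treated for 4 days with 500 ng/ml doxycycline, which switches the Tet-on construct on (the extraction protocol gives the dose per µl instead). Chromatin was precipitated with a Flag antibody from 2 biological replicates of each group. Full-length and CTD-deleted FOXA1, used below for comparison, were labelled with the same cell line, doxycycline dose and day, and also had 2 replicates each. Each group is 1 deposited list made from both replicates, so no difference below has a replicate check and no p-value is given for any of them. Whether a line is 1 clone, how strongly each protein was expressed and which residues the deletion removes are not given in the sources used here.

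FOXA2 is a forkhead transcription factor of the endoderm. It is required for foregut and liver development, and in hepatocytes it binds enhancers of genes for serum proteins, lipid carriers and gluconeogenic enzymes. FOXA proteins are called pioneer factors because their winged-helix domain can engage its sequence on nucleosomal DNA, and the parts on either side of that domain act in activation and in contacts with other proteins. The series title places the study in the search of pioneer factors for their targets in live cells, and the pair asks what the CTD contributes to where FOXA2 is found. Neither list had a summit within FOXA2 itself, on chromosome 20 at 22580998 to 22585490, so the peaks give no check of the constructs.

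The promoters under peaks show where the forms part. The sequences below are RefSeq promoters (GRCh38.p14), 250 bases before to 50 after a gene's annotated start and read along the gene's strand. They are the 2 promoters per class with the strongest peak that contains the forkhead heptamer TGTTTAC. The heptamer is in capitals, and appears as GTAAACA where it lies on the other strand. In both lists were the promoters of DUSP11, an RNA 5′-triphosphatase, at chr2:73780054-73780353 (minus strand), and of WDR48, an activator of deubiquitinases, at chr3:39051766-39052065 (plus strand). The promoters of HBP1, an HMG-box repressor, at chr7:107168753-107169052 (plus strand) and of TNRC18 at chr7:5423785-5424084 (minus strand) lay under a CTD-deleted peak alone. Those of PHF3, a PHD finger protein that binds RNA polymerase II, at chr6:63635552-63635851 (plus strand) and of DHX40, a DEAH-box helicase, at chr17:59565360-59565659 (plus strand) lay under a full-length peak alone.
DUSP11: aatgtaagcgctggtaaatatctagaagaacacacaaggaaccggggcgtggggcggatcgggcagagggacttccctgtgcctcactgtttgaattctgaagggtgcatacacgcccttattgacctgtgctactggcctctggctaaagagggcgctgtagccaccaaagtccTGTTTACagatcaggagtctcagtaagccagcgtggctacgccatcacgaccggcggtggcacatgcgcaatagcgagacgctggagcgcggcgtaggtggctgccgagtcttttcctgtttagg
WDR48: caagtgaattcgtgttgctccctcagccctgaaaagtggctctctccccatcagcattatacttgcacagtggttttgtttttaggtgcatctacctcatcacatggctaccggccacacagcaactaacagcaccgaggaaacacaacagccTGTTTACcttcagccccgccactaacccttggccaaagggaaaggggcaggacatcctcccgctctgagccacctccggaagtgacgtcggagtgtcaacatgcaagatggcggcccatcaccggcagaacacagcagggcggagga
HBP1: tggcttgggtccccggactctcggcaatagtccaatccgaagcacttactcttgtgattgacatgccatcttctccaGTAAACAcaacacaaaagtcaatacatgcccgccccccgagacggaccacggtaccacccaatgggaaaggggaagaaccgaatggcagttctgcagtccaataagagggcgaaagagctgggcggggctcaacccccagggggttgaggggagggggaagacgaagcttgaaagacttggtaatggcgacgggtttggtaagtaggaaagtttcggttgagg
TNRC18: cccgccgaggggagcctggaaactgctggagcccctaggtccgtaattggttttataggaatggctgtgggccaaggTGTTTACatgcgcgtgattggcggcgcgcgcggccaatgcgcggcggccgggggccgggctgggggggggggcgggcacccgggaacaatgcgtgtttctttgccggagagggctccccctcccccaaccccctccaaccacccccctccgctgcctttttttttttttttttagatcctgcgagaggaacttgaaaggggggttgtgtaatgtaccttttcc
PHF3: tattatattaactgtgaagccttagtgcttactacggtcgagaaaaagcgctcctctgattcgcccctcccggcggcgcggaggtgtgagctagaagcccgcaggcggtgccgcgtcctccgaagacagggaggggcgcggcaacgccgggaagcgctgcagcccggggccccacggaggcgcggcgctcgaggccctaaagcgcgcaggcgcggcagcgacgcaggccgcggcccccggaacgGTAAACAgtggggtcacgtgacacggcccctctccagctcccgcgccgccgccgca
DHX40: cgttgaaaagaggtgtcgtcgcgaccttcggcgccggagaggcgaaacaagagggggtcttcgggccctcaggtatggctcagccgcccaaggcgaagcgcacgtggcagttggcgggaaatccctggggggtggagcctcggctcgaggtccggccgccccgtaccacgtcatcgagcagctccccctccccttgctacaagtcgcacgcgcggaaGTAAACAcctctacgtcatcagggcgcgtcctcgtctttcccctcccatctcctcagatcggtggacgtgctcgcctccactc

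At DUSP11 the lower −log10 p of both replicates was 15.5 with the CTD deleted and 7.66 at full length, and the heptamer lay 36 bp from the CTD-deleted summit. WDR48 had 12.5 and 5.03, with the heptamer 38 bp from the summit. The 4 promoters found in 1 list had 11.98 (HBP1) and 7.84 (TNRC18) with the CTD deleted, and 6.68 (PHF3) and 3.53 (DHX40) at full length. The heptamer lay 174 bp from the summit at HBP1, 3 bp at TNRC18, 117 bp at PHF3 and 24 bp at DHX40.

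Over all 22132 promoters of coding genes in the RefSeq table, which covers 15812 genes, 508 were overlapped by a peak of both lists, 685 by a CTD-deleted peak alone and 984 by a full-length peak alone. The larger number at full length alone rests in part on weak peaks, since 466 of the 984 had one as strong as the weakest CTD-deleted peak (those 466 held the motif below in 5.36%). The classes differed in sequence. The heptamer TGTTTAC or its variant TATTTAC, on either strand, was present in 4.80% of all promoters and in 19.1% (95% Wilson interval 15.9 to 22.7) of those in both lists. It was present in 12.8% (10.5 to 15.6) of those under a CTD-deleted peak alone and in 4.47% (3.35 to 5.95) of those under a full-length peak alone. Promoters with neither peak held it in 4.18% (3.91 to 4.47). The class with a CTD-deleted peak alone exceeded the class with a full-length peak alone by 8.38 percentage points (Newcombe interval 5.64 to 11.3), whereas the latter differed from promoters with neither by 0.29 (-0.87 to 1.79). Neither contrast allows for G+C, which is treated below. Every interval here and below covers counting error over promoters or peaks and says nothing about the spread between libraries.

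Base composition moved with the classes, and its part was examined by splitting the promoters. Median G+C was 60.3% in both lists and under CTD-deleted peaks alone, 65% under full-length peaks alone and 62.3% in the rest. Below 55% G+C the motif was in 20.9% (15.9 to 26.8) of 211 promoters under a CTD-deleted peak alone and in 8.78% (5.21 to 14.4) of 148 under a full-length peak alone. Between 55% and 65% these shares were 11.6% (8.24 to 16.1) and 4.39% (2.68 to 7.11). At 65% and above they were 6.51% (3.92 to 10.6) and 3.24% (2.00 to 5.20), with intervals that overlap. The order of these classes was thus the same in the 3 strata. In the 2 upper strata the 2 classes lay above promoters with neither peak, at 3.00% and 1.13%, though at 55% to 65% the interval of the full-length class included that value. At 65% and above the intervals of the full-length class and of promoters with neither (0.927 to 1.38) did not overlap. Below 55% the full-length class, at 8.78%, lay below the 9.67% of promoters with neither.

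**Figure D1:**
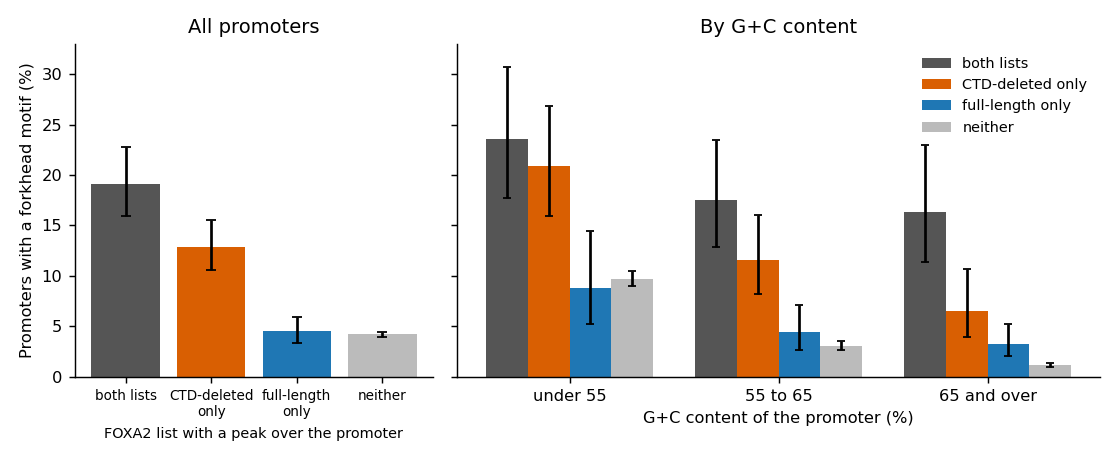
Share of promoters (%, bars start at 0) that hold TGTTTAC or TATTTAC, by the FOXA2 list with a peak over the promoter, for all promoters (left) and by G+C content (right); whiskers are Wilson 95% intervals. Over all promoters, those under a CTD-deleted peak alone (12.8%) lie above those under a full-length peak alone (4.47%). The latter lie beside promoters with neither (4.18%) there, but above them at 65% G+C and over (3.24% against 1.13%).

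Where the summit itself fell inside the 300 bases, the motif was more frequent in each class. It was present at 30.2% (24.9 to 36.2) of 248 such CTD-deleted summits in promoters of both lists, at 22.7% (18.1 to 27.9) of 278 in promoters under a CTD-deleted peak alone, and at 6.33% (4.13 to 9.57) of 316 in promoters under a full-length peak alone. The median distance from summit to motif, where there was one, was 28, 27 and 34 bp in these 3 groups. For full-length summits in promoters of both lists it was 43 bp. Motifs of other factors were counted in the same windows. TGACTCA, which AP-1 (FOS and JUN dimers) binds, was in 5.84% (4.32 to 7.85) of promoters under a CTD-deleted peak alone and in 1.93% (1.24 to 3.00) under a full-length peak alone, against 4.01% of all promoters. CCAAT, bound by NF-Y, was in 41.5% (37.8 to 45.2) and 32.7% (29.9 to 35.7), against 34.6% of all. GGAATG, the core of TEAD sites, was in 13.4% (11.1 to 16.2) and 11.9% (10.0 to 14.1), against 12.2% of all. In promoters of both lists TGACTCA was in 6.69%, CCAAT in 42.5% and GGAATG in 15.0%, so the higher shares were not particular to CTD-deleted peaks alone. These motifs of other factors were not split by G+C. The windows say nothing of sites outside them.

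The lists were cut at different points, which bears on all that follows. For each peak the authors give a −log10 p in both replicates, and the lower of the 2 is called its strength here. The weakest full-length peak had a strength of 1.52 and the weakest CTD-deleted peak 2.09. The medians were 2.24 and 2.96. Irreproducible discovery rates (IDR, a measure of how well replicate ranks agree) reached from 0.0137 to 0.351 at full length, and up to 0.25 after deletion. An IDR of at most 0.01 was met by 0 full-length and 6460 CTD-deleted peaks. Strength depends on sequencing depth, which is unknown because read numbers were not used here. The CTD-deleted list had 1.18 times as many peaks, 1.69 times at its IDR limit applied to both lists, and 2.18 times with its lowest strength applied to both.

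Both lists together covered 74508 separate regions. Of these, 22723 (30.5%) were in both lists, 21757 (29.2%) in the full-length list alone and 30028 (40.3%) in the CTD-deleted list alone. At shared sites (peaks overlapping by at least 1 bp) the summits of both forms nearly coincided, with a median distance of 38 bp and quartiles of 17 and 78 bp. Peaks found in 1 list have no overlap with the other by definition. For them the nearest summit of the other list was at a median of 14.2 kb (full-length-only) and 17.8 kb (CTD-deleted-only). It lay within 10 kb for 39.7% and 33.7% of these peaks. The CTD-deleted peak was the stronger in 81.4% of 22168 shared pairs outside chromosome 15, by a median factor of 1.48 in −log10 p.

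Over all strengths, shared peaks were wider than those of 1 list. Median width was 613 bp (quartiles 450 and 835) for shared and 536 bp (394 and 748) for full-length-only peaks. With the CTD deleted it was 698 bp (535 and 923) for shared and 560 bp (424 and 752) for CTD-deleted-only peaks. The 85 bp by which shared CTD-deleted peaks exceeded shared full-length peaks was 72 to 87 bp under the 3 alternative list limits. The 24 bp between the classes found in 1 list was not stable: it became -4 bp at the common IDR limit and -20 bp at the common strength limit. Width and strength moved together, so CTD-deleted-only peaks of strength 2.09 to 2.5 had a median of 526 bp and those of 5 and over 701.5 bp. In these bands full-length-only peaks measured 566 bp and 826 bp, against 582 bp and 777 bp for shared full-length peaks, so the order of the latter pair turned among strong peaks.

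Peaks of CTD-deleted FOXA2 alone were less often sites of FOXA1, the close relative of FOXA2 that was mapped in the same cell line. The FOXA1 lists differ in size, with 37219 full-length and 50105 CTD-deleted peaks, and a larger list can overlap more. Of the shared full-length peaks, 51.1% overlapped a full-length FOXA1 peak and 67.1% a CTD-deleted FOXA1 peak. Full-length-only peaks did so in 27.3% (26.7 to 27.9) and 34.4% (33.8 to 35.0), and CTD-deleted-only peaks in 17.3% (16.9 to 17.7) and 25.3% (24.8 to 25.8). The differences between the one-list classes were -9.97 points (-10.7 to -9.24) and -9.12 (-9.92 to -8.32). Within bands of equal strength the differences were wider, though an equal −log10 p in 2 lists of unknown depth need not mean like binding. At strengths of 2.09 to 2.5, full-length FOXA1 overlapped 34.4% of 4806 full-length-only and 11.1% of 11891 CTD-deleted-only peaks. At 5 and over it overlapped 65.3% of 311 and 46.1% of 1656. The order was the same against either FOXA1 list in the 4 bands. Shared peaks split in that order too, so part of the gap comes with the banding. Full-length FOXA1 overlapped 47.7% of shared full-length and 37.3% of shared CTD-deleted peaks at 2.09 to 2.5, and 71.9% and 64.5% at 5 and over. With each list cut into 4 equal classes by its own strength, gaps between one-list peaks were narrower. They were 15.9% against 10.7% in the weakest class and 52.7% against 38.0% in the strongest. At the common IDR limit the differences were -15.9 points against both, and at the common strength limit -20.3 and -20.5.

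**Figure D2:**
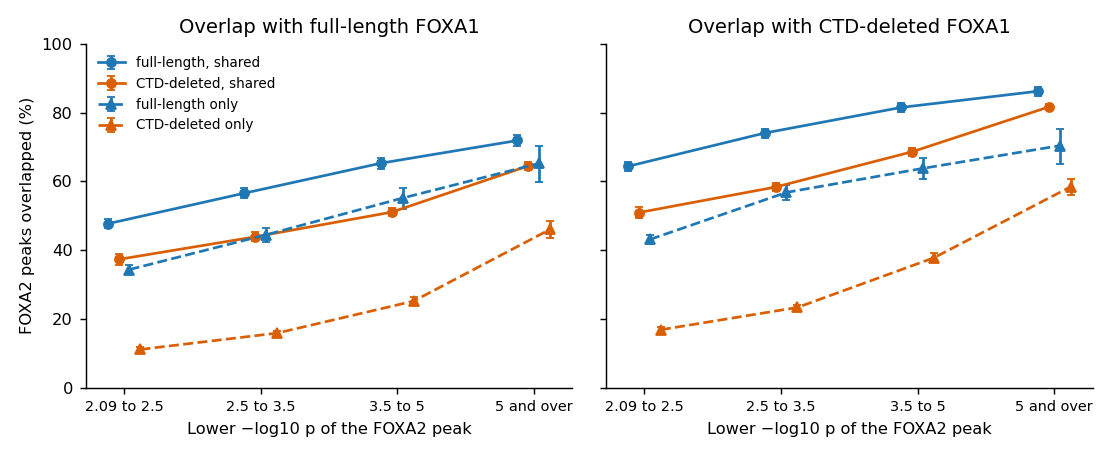
Share of FOXA2 peaks (%) overlapped by a full-length (left) or CTD-deleted (right) FOXA1 peak, in 4 bands of strength (lower −log10 p, 2.09 and over); circles are shared and triangles one-list peaks, with Wilson 95% intervals. CTD-deleted-only peaks are lowest in the 4 bands, from 11.1% to 46.1% in the left panel.

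Both forms lay mostly far from gene starts, and over all strengths full-length-only peaks fell within genes most often. Coding genes cover 41.6% of the chromosomes as measured here. The share of summits within a coding gene was 49.0% (48.4 to 49.7) for full-length-only peaks, 46.0% for shared full-length peaks, 45.7% for shared CTD-deleted peaks and 44.5% (43.9 to 45.0) for CTD-deleted-only peaks. The one-list classes differed by -4.58 points (-5.45 to -3.71). That difference kept its sign under 5 other settings, between -1.93 with all annotated genes and -6.75 outside the gene-free stretches described below. It was not seen among stronger peaks: at strengths of 3.5 to 5 the shares were 43.2% (40.2 to 46.3) for full-length-only and 45.2% (43.8 to 46.5) for CTD-deleted-only peaks, and at 5 and over 42.8% (37.4 to 48.3) and 45.4% (43.0 to 47.8), with intervals that overlap. Within 1 kb of an annotated start lay 4.36% (4.09 to 4.64) of full-length-only and 2.81% (2.63 to 3.01) of CTD-deleted-only summits, with 777 of 22880 and 759 of 22838 of the shared ones. The difference of -1.54 points (-1.88 to -1.22) stayed between -1.28 and -1.58 under the 3 alternative list limits. By strength, the shares were 5.10% and 2.66% at 2.09 to 2.5 and 4.29% and 2.67% at 2.5 to 3.5. At 3.5 to 5 they were 3.22% and 3.20%, and at 5 and over 3.54% (1.99 to 6.22) and 3.68% (2.88 to 4.70). Summits over 100 kb from a start made up 42.6% of full-length-only and 42.3% of CTD-deleted-only peaks, a difference of -0.30 points whose interval (-1.16 to 0.57) includes 0. Genes were also divided into 3 equal parts from start to end: the first held 37.8% to 39.0% of summits in each class, the middle 30.9% to 31.9% and the last 29.6% to 30.8%.

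Between genes, part of the difference lay in gene-free stretches. The longest stretch without an annotated gene was taken on each chromosome, 164.4 Mb or 5.43% of the span in all. It held 5.81% (5.51 to 6.13) of full-length-only and 1.88% (1.73 to 2.04) of CTD-deleted-only summits, and 4.61% and 4.60% of the shared ones. The stretch of chromosome 11 held 185 full-length-only and 48 CTD-deleted-only peaks, that of chromosome 7 held 116 and 12, and that of chromosome 10 held 63 and 7. On chromosomes 1, 5 and 19 the order was the other way, with 69 and 72, 72 and 82, and 53 and 73. These stretches, such as chr7:57868450-60991901 and chr11:50420632-54591479, were not checked for centromere sequence, repeats or assembly gaps. Their share of the span is therefore no firm baseline, and peaks in them need not be peaks in ordinary gene deserts. Outside coding genes, the median distance to the nearest gene end was 149.5 kb for full-length-only and 87.8 kb for CTD-deleted-only peaks, and 105.7 kb and 80.8 kb with the stretches left out.

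About as many genes were occupied by each form. Of 19974 coding genes, 37.3% held a full-length summit in their span (7448) and 37.2% a CTD-deleted one (7424). Both occupied 5769 (28.9%), full length alone 1679 (8.41%) and the CTD-deleted form alone 1655 (8.29%). Genes occupied by 1 form mostly rested on 1 summit, in 81.8% and 78.8% of cases. The count for full length alone depended on the list limit, at 984 with the common IDR limit and 707 with the common strength limit. The count for the CTD-deleted form alone was 2391 and 2877 there. With equal numbers of the strongest peaks the order was the other way, with 1978 for full length alone and 1338 for the CTD-deleted form alone. Long genes were occupied by both: the median length was 88.2 kb for genes of both lists, 28.2 kb for full length alone, 36.6 kb for CTD-deleted alone and 11.3 kb for genes of neither.

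Gene length separated the forms. Coding genes were put into 4 equal classes by length. In the shortest (median 3.89 kb) the full-length list had 387 summits and the CTD-deleted list 285, a ratio of 0.736. In the next classes the ratio was 0.867 and 1.00, and in the longest (median 128 kb) it was 1.18, with 16402 against 19284 summits. Full length alone occupied 249 of the shortest genes and the CTD-deleted form alone 149, against 338 and 451 of the longest. The ratio itself turned with the list limit, to 1.19 in the shortest genes at the common IDR limit and to 1.52 at the common strength limit. The longest genes then had 1.69 and 2.16, so the shortest stayed below the longest. With equal numbers of peaks the values were 0.612 and 0.999.

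**Figure D3:**
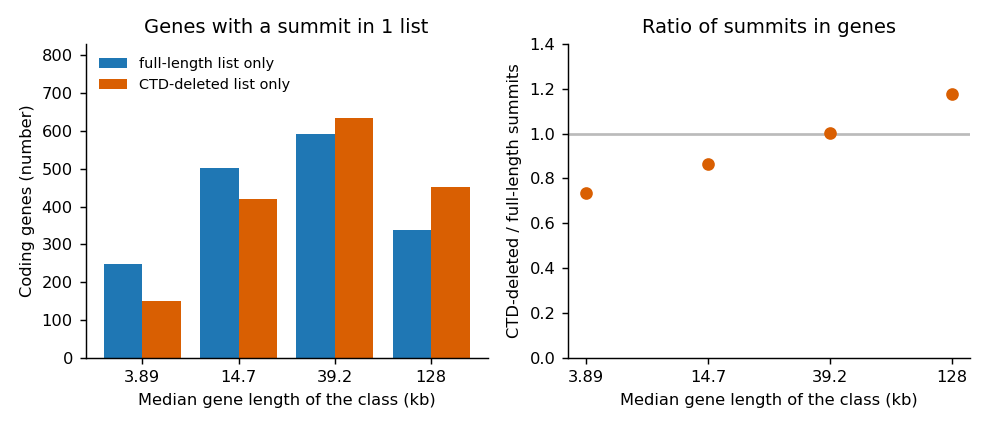
Coding genes in 4 classes of length (x axis, median length in kb): left, the number of genes with a summit in 1 list alone; right, CTD-deleted summits divided by full-length summits. The ratio goes from 0.736 in the shortest class to 1.18 in the longest.

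Developmental and liver genes of FOXA2 were occupied no more often than coding genes at large in these osteosarcoma cells. A list was counted by summits within 10 kb of a gene, which 51.2% of all coding genes had at full length and 52.3% with the CTD deleted. For full length alone the share of all genes was 10.4%, and for the CTD-deleted form alone 11.4%. Of 29 genes of endoderm and primitive streak, 9 had a full-length and 11 a CTD-deleted summit, or 31.0% and 37.9%, and the median length of these genes was 9.47 kb against 24.2 kb for all. HNF4A, a nuclear receptor of liver and gut, had 5 summits in each list, all 5 shared. Its relative HNF4G had 5 at full length and 2 after deletion. The endoderm factors GATA6 and GATA4 had 3 and 2 summits in each list, and the homeobox gene PROX1 had 1 and 2. The hepatic factors ONECUT1 and ONECUT2 had 0 at full length and 1 and 2 after deletion, and TBXT (brachyury) 0 and 1, while the Nodal inhibitor gene LEFTY1 had 1 and 0. SOX17, CXCR4, FOXA2 and 14 further members had none in either list.

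Of 25 hepatocyte genes, 12 (48.0%) had a summit in each list, 10 of them in both, and their median length was 9.99 kb. ABCB11, the bile salt export pump, had 4 summits at full length and 3 after deletion. TTR, which encodes the carrier transthyretin and is a classical FOXA target, had 2 shared summits in each list, with a highest strength of 4.33 at full length and 3.62 after deletion. APOB, the protein of low-density lipoprotein, had 1 and 4, with highest strengths of 2.44 and 6.19, and the urea cycle gene CPS1 had 3 and 1. ALB and TAT had 0 and 1 each, PCK1 and ARG1 had 1 and 0 each. At the common strength limit 7 members remained at full length.

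Osteoblast and mesenchymal genes, which mark the lineage of the host cell, had a CTD-deleted summit at 16 of 25 (64.0%) and a full-length one at 12 (48.0%), with a median gene length of 25.8 kb. Of all coding genes 52.3% and 51.2% had such a summit. The CTD-deleted form alone occupied 5 of the 25 and full length alone 1, against 11.4% and 10.4% of all coding genes. Whether these counts differ from each other or from those shares was not tested. RUNX1, a RUNT-domain factor, had 9 summits at full length and 13 after deletion, 6 of them shared. RUNX2, the master regulator of osteoblasts, had 6 and 5, and the cadherin gene CDH11 had 5 and 5. SOX9, the factor of cartilage, had 0 and 4, the strongest at 11.2. LRP5, a Wnt co-receptor, had 0 and 4 as well, the strongest at 3.59. COL1A1, COL1A2 and FN1, which encode matrix proteins, had 0 and 1 each, whereas BGLAP (osteocalcin) had 1 and 0. With equal numbers of peaks the counts of occupied members were 12 and 14.

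AP-1, YAP and TEAD genes, which serve growth and adhesion signals in such cells, were occupied in 19 of 25 (76%) at full length and 18 (72%) after deletion. Of all coding genes 51.2% and 52.3% were. The median length of the list was 20.1 kb, and whether its share differs from that of all genes was not tested. TEAD4 had 7 summits at full length and 3 after deletion. YAP1 and WWTR1, the TEAD co-activators, each had 4 and 5, and VGLL3 had 4 and 4. MAFK, a small MAF partner of AP-1-like factors, had 1 and 5, with highest strengths of 1.92 and 15.2. JUN had 0 and 1, while JUND and TEAD3 had 1 and 0. At the common strength limit full length had 11 members.

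Of 25 ribosomal protein genes, 12 (48%) were occupied at full length and 7 (28%) after deletion, against 51.2% and 52.3% of all coding genes. Their median length was 4.52 kb against 24.2 kb for all, and whether they differ from other short genes was not tested. Among all genes, 10.4% were occupied at full length alone and 11.4% by the CTD-deleted form alone. Full length alone had a summit at RPL3, RPL13, RPL27, RPS2, RPS12 and RPS14, and the CTD-deleted form alone at RPS3. Strengths at RPL3, RPS12 and RPS14 were 1.59 to 1.74, below the weakest CTD-deleted peak, and at RPL13, RPL27 and RPS2 they were 3.02, 3.43 and 3.74, above it. The counts were 6 and 7 at the common strength limit, and 12 and 7 once the lists were cut to the same size. At the 25 genes chosen for length, 24 were occupied by both forms, with 534 full-length and 660 CTD-deleted summits. Their median length was 1504 kb, so this occupancy says little on its own. The ratio of summits was 1.24, against 1.12 over all coding genes. DLG2, a synaptic scaffold, had 36 and 57. CTNNA3 had 58 and 67, and LRP1B had 31 and 36. PCDH9 had none in either list. It lies in a stretch of chromosome 13, from 60 to 110 Mb and chosen after its values were seen, with few peaks in each list: 55 of full-length and 67 of CTD-deleted FOXA2, and 36 and 111 of FOXA1.

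Individual genes with at least 2 times as many summits of 1 form were then sought among the 2814 coding genes with at least 5 summits in both lists together. Full length had at least 2 times as many in 273 (9.7%) and the CTD-deleted form in 482 (17.1%). Widest in favour of full length was BIRC6, a ubiquitin ligase that restrains apoptosis, with 18 summits against 8. AFG2A, an ATPase of ribosome assembly, had 13 against 5, and the F-box gene FBXL17 had 12 against 4. BRINP3 had 14 against 7, CMIP had 8 against 1, and AFF4, a scaffold of the super elongation complex, had 9 against 2. These differences depended on the list limit. At the common strength limit, which removes full-length peaks only, they were 3 for BIRC6 and FBXL17, 5 for AFF4 and 0 for AFG2A and CMIP. BRINP3 then had 1 more summit in the CTD-deleted list. At the common IDR limit, which also cuts the full-length list only, CTD-deleted minus full-length summits were -8 to -3 in these genes. With equal numbers of peaks, which cuts the CTD-deleted list only, they were -10 to -7. The number of such genes dropped to 70 at the common IDR limit and to 15 at the common strength limit, and was 385 with equal numbers of peaks.

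Genes with more CTD-deleted summits were longer, at a median of 181 kb against 104 kb. PTPRM, a receptor tyrosine phosphatase, had 35 CTD-deleted and 14 full-length summits, and 27 of the 35 had no full-length overlap. KCNMA1, the pore of the BK potassium channel, had 25 and 6, and GRK3, a kinase of G-protein-coupled receptors, had 27 and 8. PHACTR1, a regulator of actin and phosphatase 1, had 31 and 12, RALYL had 32 and 13, and the latrophilin gene ADGRL2 had 27 and 11. These differences of 16 to 21 summits stayed at 13 or more under the 3 alternative list limits. The count of genes was 915 and 1228 at the common limits and 317 with equal numbers of peaks. FOXA1 gave no like division: CTD-deleted FOXA1 had 1.30 times the full-length FOXA1 summits in genes with more full-length FOXA2 summits and 1.37 times in those with more CTD-deleted ones, with 1.37 over the 2814 genes. The genes with most summits were shared out more evenly. EYS had 72 full-length and 79 CTD-deleted summits, PCDH15 had 72 and 78, TTC28 had 58 and 70, CTNNA3 had 56 and 65 in its span, and PRKG1 had 58 and 60.

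**Figure D4:**
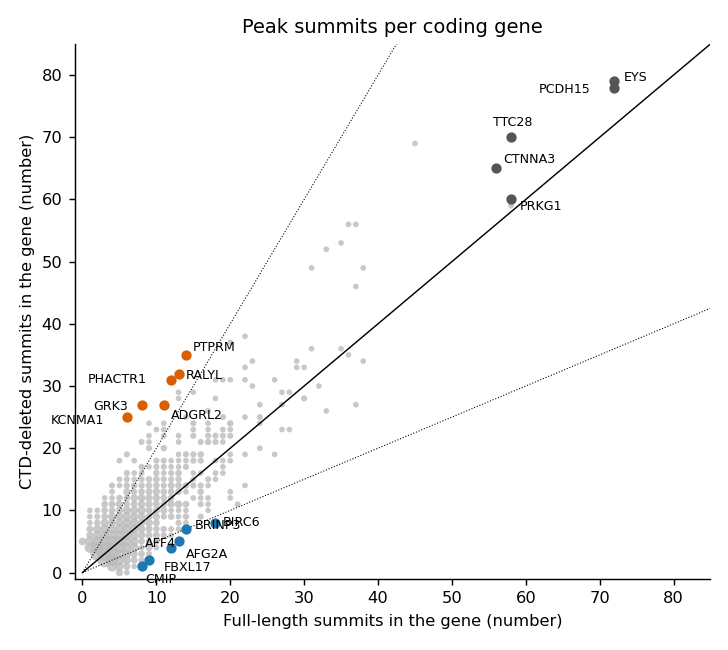
Full-length (x) against CTD-deleted (y) peak summits in each coding gene with at least 5 summits (number; grey points grow with the number of genes); the solid line marks equality and dotted lines a factor of 2. Coloured points are named genes: PTPRM (14 and 35) lies above the upper dotted line, BIRC6 (18 and 8) below the lower one, and EYS (72 and 79) near equality.

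Chromosome 15 stood apart from the rest. The ratio of CTD-deleted to full-length peaks was above 1 on 23 of 23 chromosomes and lay between 1.04 on chromosome 5 and 1.32 on chromosome 10, except on chromosome 15, where it was 1.74 (1979 against 1140 peaks). The FOXA1 pair had 1.16 there, within its own range of 0.699 to 1.71. The excess began part of the way along: before 40 Mb there were 198 CTD-deleted and 191 full-length peaks, and from 40 Mb on 1781 and 949, a ratio of 1.88. Of 287 blocks of 10 Mb with at least 50 peaks, the 5 highest ratios, 1.79 to 2.38, were the 5 blocks of chromosome 15 between 50 and 100 Mb. Peaks in both lists had a higher CTD-deleted strength there too, by a median factor of 1.65 from 40 Mb on. The factor was 1.48 on other chromosomes. For the FOXA1 pair these factors were 1.03 and 1.06. By 10 Mb block the FOXA2 factor was 1.51 to 1.83 in this part of chromosome 15, and some blocks elsewhere had like values. Among them were 1.72 at 10 to 20 Mb of chromosome 6 (peak ratio 1.64) and 1.76 at 20 to 30 Mb of chromosome 16 (peak ratio 1.25). Chromosome 15 held 45 of the 482 genes with at least 2 times as many CTD-deleted summits and 4 of the 273 of full length. Without it the ratio of peak numbers was 1.17. Each form was expressed in its own stable line, and neither reads nor input were used here, so the DNA content of each line in this region was not measured; the line and the deletion cannot be told apart.

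**Figure D5:**
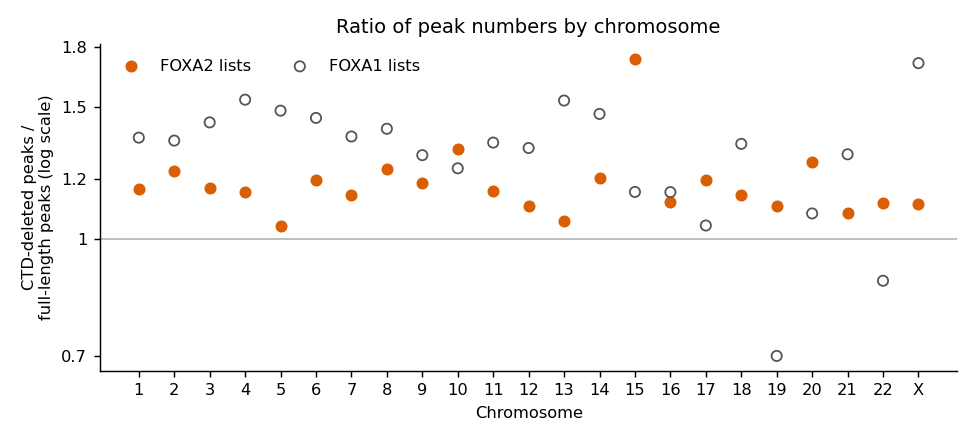
CTD-deleted peaks divided by full-length peaks on each chromosome (log axis), for the FOXA2 lists (filled) and the FOXA1 lists (open). FOXA2 lies between 1.04 and 1.32 except on chromosome 15, at 1.74, where FOXA1 has 1.16.

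In windows of 1 Mb with at least 10 peaks, of which there were 2509, full length had at least 2 times as many peaks in 48 (1.91%) and the CTD-deleted form in 194 (7.73%). Of the 194, 28 were among the 78 windows of chromosome 15. The 8 of full length with the largest difference in number included 51 to 53 Mb of chromosome 11, with 81 and 97 peaks against 38 and 45, and 58 to 61 Mb of chromosome 7, with 39, 61 and 48 against 10, 17 and 17. Both regions lie in the gene-free stretches already described, but for the very end of the second, so they are not separate loci. Among the 10 such windows of the CTD-deleted form were 3 at 56 to 59 Mb of chromosome 15, 1 at 7 to 8 Mb of chromosome 18 (49 against 16), which lies partly in PTPRM, and 1 at 12 to 13 Mb of chromosome 6 (55 against 24), partly in PHACTR1. The others were at 125 to 126 Mb of chromosome 8 (58 against 27), at 29 to 30, 36 to 37 and 61 to 62 Mb of chromosome 10 (53 against 25, 44 against 17 and 54 against 27), and at 18 to 19 Mb of chromosome 22 (31 against 4). Some of these windows lay in wider regions with more CTD-deleted peaks. The block of 10 to 20 Mb of chromosome 6 had 342 against 209, and that of 30 to 40 Mb of chromosome 10 had 343 against 206.

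Runs of neighbouring peaks were common to both forms and mostly mixed. Summits within 10 kb of each other were joined, and runs of at least 3 counted as clusters. They numbered 1931 at full length and 2614 after deletion, holding 15.6% and 17.8% of peaks. The difference of 2.21 points (1.74 to 2.67) turned to -1.16 (-1.63 to -0.687) with equal numbers of peaks. Shared and one-list peaks stood together in 75.3% of the full-length and 73.6% of the CTD-deleted clusters. Of all peaks, 51.3% at full length and 43.2% after deletion were shared. With such shares most runs of at least 3 peaks would be mixed without any tendency to stand together. Whether there is such a tendency was not tested. Clusters without a shared peak numbered 213 and 464, and clusters of shared peaks alone 264 and 226. A shared peak lay within 10 kb of 22.2% (21.7 to 22.8) of full-length-only and 20.4% (19.9 to 20.9) of CTD-deleted-only peaks. Largest outside the gene-free stretches at full length was a run of 11 peaks at chr21:28229012-28266145, 5 of them shared, and 1 of 10 peaks at chr7:2520511-2574669 around BRAT1, 4 of them shared. After deletion it was a run of 13 at chr21:27406694-27474172, 2 of them shared, and 1 of 12 in ARAP2 at chr4:36128474-36182004, 5 of them shared.

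The strongest shared peaks each overlapped a peak of at least 1 FOXA1 list. At full length they lay at chr4:1427142-1429369 and chr4:1434155-1435730, nearest to the homeobox gene NKX1-1, with strengths of 39.4 and 36.6, then at chr7:19494295-19495984 (32.8), far from genes, and within SLC35F1 at chr6:117923700-117924633 (32.6). After deletion they lay at chr14:19297573-19298722 (43.8), within PLEKHH2 at chr2:43758913-43759757 (43.5), at chr8:12449103-12450056 (39.5), and within PAX5, a B-cell factor, at chr9:36923726-36924498 (33.8). In both lists the summits of these 8 were at most 32 bp apart. At strengths of 5 and over, full-length FOXA1 overlapped 71.9% of shared full-length and 64.5% of shared CTD-deleted peaks, and CTD-deleted FOXA1 86.2% and 81.7%. The shares against these FOXA1 lists were 65.3% and 70.4% for full-length-only peaks. For CTD-deleted-only peaks they were 46.1% and 58.5%. Each of the 4 strongest peaks of full length alone overlapped a FOXA1 peak. After the strongest 2 came chr3:195860014-195861281, 2.77 kb from TNK2, and chr8:28659850-28660719 within EXTL3, both with 14.96. In the CTD-deleted list alone the strongest 2, within TTC28 and near BMS1, overlapped both FOXA1 lists. Next came chr2:33102507-33105246 within LTBP1, a latent TGF-β binding protein, with 20.96 and 52.4 in the replicates and in neither FOXA1 list. It was followed by chr1:160101863-160102726, 2.65 kb from IGSF8, with 20.6 and in the CTD-deleted FOXA1 list alone. Exons and introns were not distinguished.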

How the data were processed

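Flag ChIP-seq peaks of 2 groups with 2 replicates each were compared. Per the submitters' processing notes the build is hg38 and the tools include Trim Galore, Bowtie2 2.4.4, SAMtools 0.1.18 and MACS2, with no role or order given. The authors deposited 1 headerless 20-column list per group in IDR layout. From it were taken the deposited score (125 times log2 of 1 over the IDR, at most 1000), the authors' −log10 p in each replicate (columns without a replicate number) and the deposited summit offset. The −log10 p depends on the depth, which is unknown.

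From these lists overlaps of at least 1 bp, summits within RefSeq GRCh38.p14 gene spans (19974 coding genes), promoters, Wilson and Newcombe 95% intervals and medians were computed with Python 3.11.15, numpy 2.4.6 and pandas 2.3.3, after a check on simulated peaks. Strength is the lower −log10 p. Promoters came from the RefSeq table (79.2% of coding genes). Peaks, genes and lists were chosen with earlier results of these data known. Genes named were, per list, the 5 with most summits and those occupied in 1 list; the 6 widest of the differences by a factor of 2 each way and the 5 with most summits overall; peaks, the strongest 4 per class; clusters, the largest 2. Some genes that meet this rule are not reported here. Alternatives were the stricter IDR limit or the lowest CTD-deleted strength in both lists, equal numbers of the strongest peaks, other overlap, distance and gene definitions, and leaving out chromosome 15. The strength limit, chromosome 15, the strata of G+C, strength bands, further motifs and the choice of printed promoters were added after seeing the data.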

Additional observations from a re-analysis of the deposited data

Results flagged for a closer look

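Peaks on contigs other than chromosomes 1 to 22, X and Y were left out of the comparisons but were present in both lists, above the limit of 3 that a count of 0 allows. The full-length list held 434, on 153 contigs, and 50.7% (46.0 to 55.4) of them overlapped a CTD-deleted peak. The CTD-deleted list held 544, on 175 contigs, of which 40.1% (36.0 to 44.2) overlapped a full-length peak. They made up 0.963% and 1.02% of the lists. Most, 311 and 397, lay on alternate versions of chromosome regions.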

How the results depend on the processing

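No paired analysis was possible because each group has 1 combined list and its replicate columns carry no number. Depth, and with it the meaning of a p, is unknown. Of 98 values of 32 comparisons under alternatives, 57 stayed within the main interval (or within 1.5 times), 35 moved further and 6 changed direction; the causes were not tested beyond a stricter limit leaving fewer peaks. An IDR of at most 0.01 left 0 full-length peaks and gave no ratio. Differences are CTD-deleted minus full-length, or the classes found in 1 list.

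At the stricter IDR limit in both lists (31197 full-length peaks), 59.9% of full-length and 35.3% of CTD-deleted peaks were shared, the share in genes differed by -3.25 points, and the median distance to a gene by -99.8 kb. The width difference of one-list peaks turned to -4 bp, the overlap with FOXA1 differed by -15.9 points for both FOXA1 lists, 984 genes were occupied at full length alone, genes past a factor of 2 numbered 70 and 915, and the summit ratio in the shortest genes turned to 1.19.

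At the lowest CTD-deleted strength in both lists (24288 full-length peaks), the ratio of peak numbers was 2.18, 66.0% and 30.4% were shared, and the share in genes differed by -3.31 points. Width turned to -20 bp, clusters differed by 10.4 points, FOXA1 overlap by -20.3 (full-length FOXA1) and -20.5 points, and 707 and 2877 genes were occupied in 1 list. Genes past a factor of 2 numbered 15 and 1228, the summit ratio turned to 1.52 in the shortest and was 2.16 in the longest genes. Full-length members were 11 for AP-1, YAP and TEAD, 7 for hepatocyte and 6 for ribosomal genes, and BRINP3 turned to 1.

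With equal numbers of the strongest peaks, 46.9% and 46.7% were shared, clusters turned to -1.16 points, 317 genes had at least 2 times as many CTD-deleted summits, and the summit ratio in the longest genes turned to 0.999. With 50% reciprocal overlap 43.8% and 37.0% were shared. All annotated genes gave -1.93 points for the share in genes. Outside the gene-free stretches it was -6.75 points, the distance differed by -24.9 kb and clusters by 3.24 points; neighbours within 50 kb gave 5.35 points. TGTTTAC alone gave a difference of 4.81 points between promoter classes. Without chromosome 15, the peak ratio, shared shares, share in genes, occupied genes and genes past a factor of 2 did not move; the other comparisons were not run without it. Of 36 values for the 12 genes named for such a difference, 26 stayed within 1.5 times, 9 moved and 1 changed direction.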
